A study of Mus musculus with 28 samples.

Results

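Transcripts of 10 genes whose products fill neutrophil granules or neutrophil cytosol were followed through cultures of mouse bone marrow-derived macrophages, as a sign of granulocyte precursors among the cells. The members were Mpo, Elane, Prtn3, Ctsg, Ltf, Camp, Ngp, Lcn2, S100a8 and S100a9. They were found by gene symbol in the probe annotation, and each had 1 probe set, so the family is 10 of 34945 probe sets that name a single gene, or 10 of 18193 genes.

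The donor mice were of strain C57BL/6 J and 12 weeks old, and their total marrow was grown into macrophages. In the compound experiment, cells of Nrf2+/+ mice (WT) or Nrf2-/- mice (KO, without the transcription factor that RA839 acts on through its repressor Keap1) were incubated for 4 h with RA839 or with the solvent DMSO, at 0.2% DMSO throughout. In the siRNA experiment, cells labelled as Nrf2+/+ received siControl, siKeap1-1 or siKeap1-2. Each of the 7 groups held 4 arrays, which the design text calls biological replicates; nothing says whether each came from an animal of its own, so p-values measure the spread between these samples. How much RA839 was used, which sequences the siRNAs had and how long after transfection RNA was taken were not stated in the labels. RA838 appears once in the design text in place of RA839.

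Neutrophils form their granules in sequence while they mature in the marrow. Promyelocytes fill azurophil granules with myeloperoxidase (Mpo) and the serine proteases neutrophil elastase (Elane), proteinase 3 (Prtn3) and cathepsin G (Ctsg). Myelocytes and metamyelocytes fill specific granules with lactoferrin (Ltf), cathelicidin (Camp), neutrophilic granule protein (Ngp) and lipocalin 2 (Lcn2). S100a8 and S100a9 encode the subunits of calprotectin, an abundant cytosolic protein of neutrophils and monocytes. Macrophages can also make Lcn2 and both S100 transcripts when stimulated.

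In no comparison did all 10 genes change in 1 direction. With RA839 in WT cells 9 members lay below 0, and with siKeap1-2 9 lay above 0. At most 3 members passed a limma adjusted p under 0.05 in a comparison. Whether the members shifted together was not tested. S100a9, Ngp and Lcn2 varied up to 37.9-fold, 19.8-fold and 10.6-fold among arrays of an experiment. The lowest S100a9 value, 4.19, was on WT array 2 with RA839, which stood apart in RNA quality. The next lowest of the compound experiment was 5.32. The range of Lcn2 ran from a WT array to a KO array. Inside each genotype and inside the siRNA experiment, these genes varied by replicate number more than by treatment. The medians over all genes did so too inside WT (48.4% by number, 10.4% by treatment) and KO (66.0% and 4.98%). In the siRNA experiment they did not (27.5% and 30.7%). S100a8 varied little inside a group of the compound experiment, and was lower in KO than in WT cells and higher after either Keap1 siRNA. Both siRNA comparisons used the same siControl arrays, and each S100a8 call was lost in 12 of 27 alternative settings. The 4 azurophil genes stayed between 2.99 and 5.26 on all 28 arrays. RMA, the method behind the deposited log2 values, gives no detection call, so such values do not show whether the transcript was present.

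The sequences just upstream of 4 start sites are shown because S100a9, Ngp and Lcn2 swung widely on the same arrays, while the swings of S100a8, the direct neighbour of S100a9, were small. Each is 200 bases ending at the base before the start, 5′ to 3′, from RefSeq on GRCm38.p6, with capitals on matches to the C/EBP motif TTNNGNAA on either strand.
S100a9, chr3:90695722-90695921, minus strand: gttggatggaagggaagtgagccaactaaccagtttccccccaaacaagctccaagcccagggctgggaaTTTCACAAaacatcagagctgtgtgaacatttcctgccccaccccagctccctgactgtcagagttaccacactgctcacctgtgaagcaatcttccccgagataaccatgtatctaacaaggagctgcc
Ngp, chr9:110419608-110419807, plus strand: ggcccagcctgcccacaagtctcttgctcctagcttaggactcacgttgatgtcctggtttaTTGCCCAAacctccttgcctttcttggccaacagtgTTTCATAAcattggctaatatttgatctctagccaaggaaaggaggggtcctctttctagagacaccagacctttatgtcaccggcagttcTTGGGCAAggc
Lcn2, chr2:32387740-32387939, minus strand: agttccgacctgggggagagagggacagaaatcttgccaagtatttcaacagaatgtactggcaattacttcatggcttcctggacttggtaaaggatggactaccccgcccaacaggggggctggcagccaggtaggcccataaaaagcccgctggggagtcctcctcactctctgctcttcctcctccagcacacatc
S100a8, chr3:90668871-90669070, plus strand: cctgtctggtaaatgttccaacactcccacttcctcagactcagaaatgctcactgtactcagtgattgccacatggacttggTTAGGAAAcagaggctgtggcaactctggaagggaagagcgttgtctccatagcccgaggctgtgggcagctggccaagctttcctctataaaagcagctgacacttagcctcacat

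C/EBP factors drive granule gene expression in maturing neutrophils, and their motif was found upstream of 4 of the 10 members. These were Ngp with 3 matches and Ltf, S100a8 and S100a9 with 1 each, against 30% of 32851 promoters of the same length. The PU.1 motif GAGGAA, bound by a factor of both granulocytes and macrophages, was present in 5 members (Elane, Prtn3, Ltf, Lcn2 and S100a8) against 19% of promoters. The antioxidant response element TGACNNNGC, the site Nrf2 binds, was in 0 of 10 members against 8.6% of promoters, and the NF-kB motif in 0 of 10 against 14.9%. Both strands were searched and no motif was required to be free of others. These are matches of letters in a short window and say nothing of binding there. S100a8 and S100a9 are adjacent protein-coding genes with 0 between them, as are Prtn3 and Elane. Camp and Ngp, on chromosome 9, have 8 protein-coding genes between them, and Ngp and Ltf have 20.

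Macrophage markers were read as a check of the label, and they did not all behave alike. Mrc1 lay at 12.96 to 13.80 and Trem2 at 12.24 to 13.68 over all arrays. Dimmer or more variable were Cd163 at 3.98 to 6.85, Marco at 6.13 to 9.93, C1qa at 7.88 to 12.44 and Fcgr1 at 8.84 to 12.84. On every array the log2 value of Csf1r, the receptor of the macrophage growth factor, was between 14.24 and 14.55, that of Adgre1 (F4/80) between 12.63 and 13.14, that of Cd68 between 13.73 and 14.49 and that of Lyz2 between 14.44 and 14.79. Nfe2l2, which encodes Nrf2, was at 11.85 to 13.23 on WT arrays and 3.18 to 3.52 on KO arrays, and Keap1 at 10.94 to 11.16 with siControl, 8.93 to 9.13 with siKeap1-1 and 9.15 to 9.47 with siKeap1-2. Compound arrays had medians of 5.61 to 5.71 and siRNA arrays 5.91 to 5.96, so values are compared only inside an experiment. WT array 2 with RA839 stood apart in RNA quality: its 3′ minus 5′ difference of the Gapdh control probe sets was 3.74 and the next highest of the compound experiment was 1.00. Identical arrays were looked for and 0 pairs were found. In bulk RNA, fewer cells of a type and less RNA per cell cannot be told apart.

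**Figure D1:**
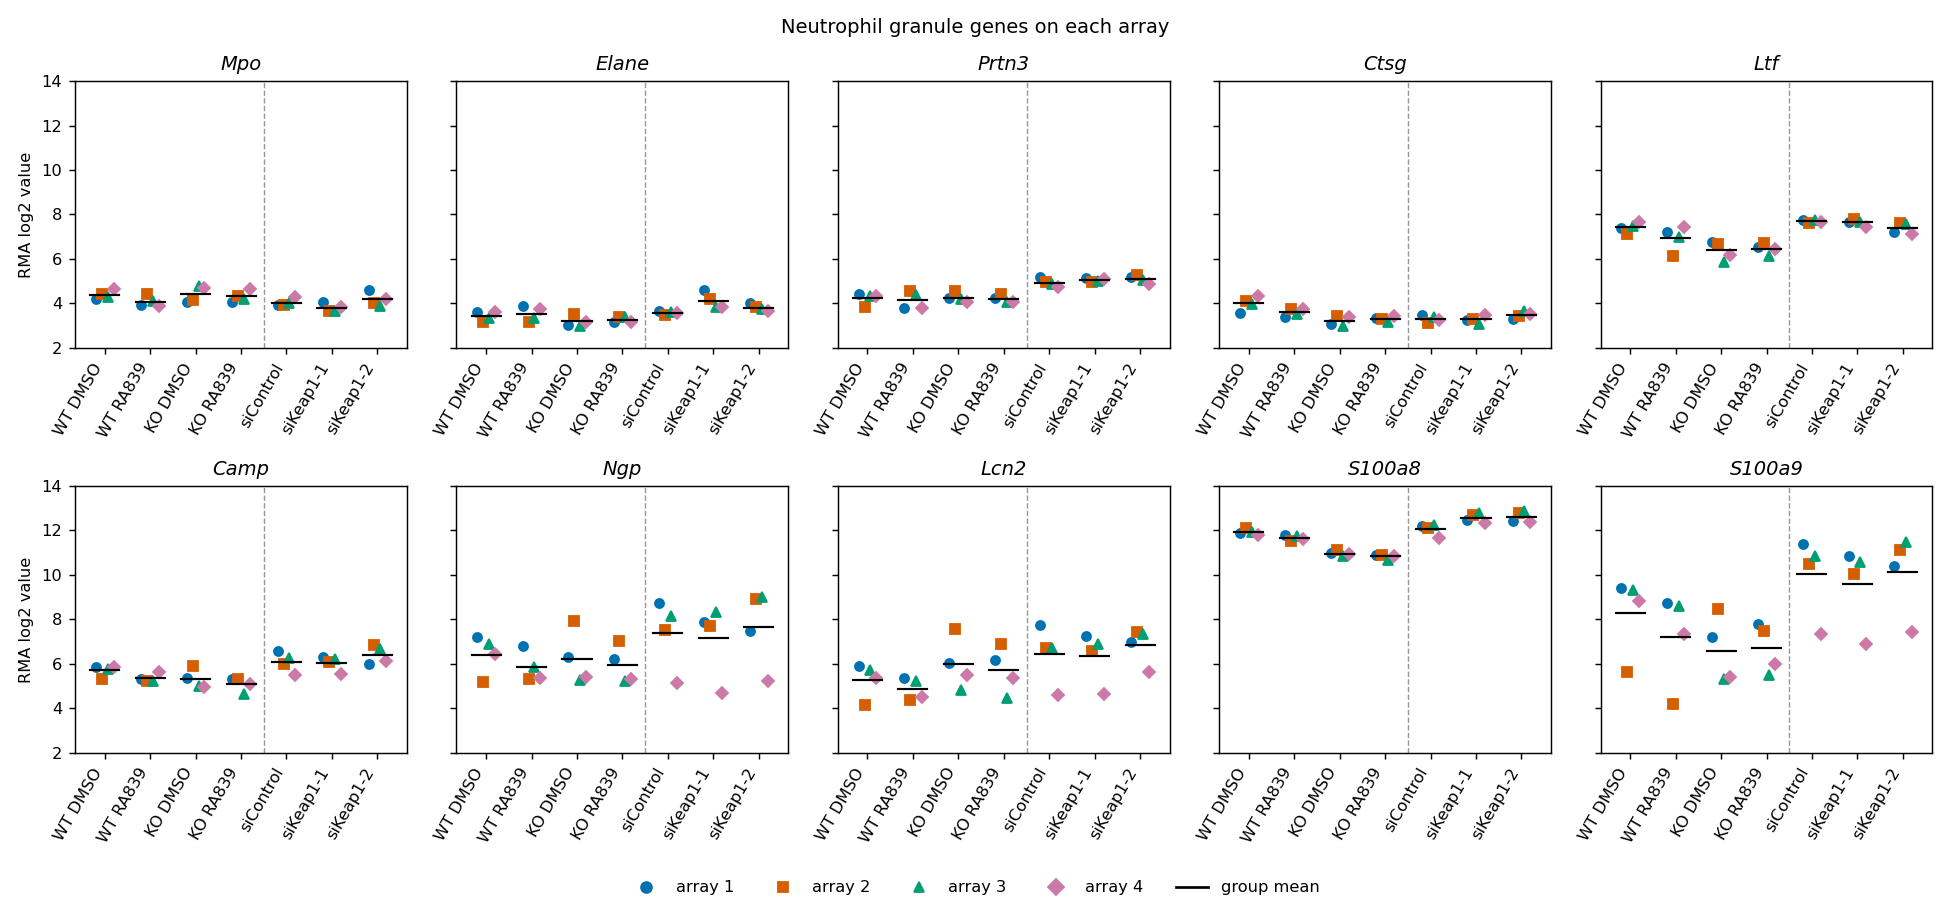
RMA log2 values (vertical axis) of the 10 granule genes in the 7 groups (horizontal axis), with 1 symbol per array, shaped and coloured by replicate number, and a bar at each group mean. The dashed line parts the experiments, which may have been normalized apart, and heights are not comparable between genes. S100a9, Ngp and Lcn2 scatter widely inside groups, S100a8 forms tight groups at different heights, and the 4 azurophil genes stay between 2.99 and 5.26.

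S100a9, the larger calprotectin subunit, had the widest spread of the family. On arrays 1 to 4 it read 9.43, 5.65, 9.33 and 8.81 in WT cells with DMSO and 8.76, 4.19, 8.61 and 7.34 in WT cells with RA839. In KO cells it read 7.22, 8.46, 5.32 and 5.39 with DMSO and 7.78, 7.50, 5.51 and 5.99 with RA839. Array 2 was thus the low one of WT cells in both treatments, and arrays 3 and 4 were the low ones of KO cells in both. With siControl the values were 11.41, 10.49, 10.87 and 7.36, with siKeap1-1 they were 10.86, 10.03, 10.57 and 6.90, and with siKeap1-2 they were 10.41, 11.13, 11.49 and 7.42. Array 4 was low in all 3 siRNA groups. The pooled SD inside groups was 1.68 in the compound experiment and 1.83 in the siRNA experiment, against medians over all genes of 0.188 and 0.136.

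Ngp, a cystatin-like protein stored in specific granules, followed the same arrays. WT cells had 7.21, 5.18, 6.87 and 6.43 on the DMSO arrays and 6.82, 5.34, 5.84 and 5.38 on the RA839 arrays. KO cells had 6.29, 7.91, 5.30 and 5.40 on the DMSO arrays and 6.21, 7.04, 5.23 and 5.33 on the RA839 arrays. In the siRNA groups it read 8.75, 7.51, 8.14 and 5.16 with siControl, 7.90, 7.70, 8.34 and 4.70 with siKeap1-1, and 7.47, 8.92, 9.003 and 5.22 with siKeap1-2. The 3 arrays numbered 4 lay below the other 9 siRNA arrays.

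Lcn2, which binds bacterial siderophores, also had its lows on those arrays. WT values were 5.89, 4.17, 5.72 and 5.37 for DMSO and 5.37, 4.38, 5.25 and 4.53 for RA839. KO values were 6.02, 7.58, 4.84 and 5.50 for DMSO and 6.19, 6.88, 4.48 and 5.35 for RA839. With siControl it read 7.75, 6.73, 6.72 and 4.61, with siKeap1-1 7.26, 6.57, 6.88 and 4.66, and with siKeap1-2 7.005, 7.42, 7.35 and 5.65. S100a9, Ngp and Lcn2 had their lowest value on the same array in 7 of 7 groups. Each pair of them shared the highest array in 5 of 7. The low array was not particular to these 3 genes: Ltf and S100a8 each shared it with each of them in 6 of 7 groups. Among the genes that are no members, 0.561% (102 genes) had the lowest array of S100a9 in all 7 groups.

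**Figure D2:**
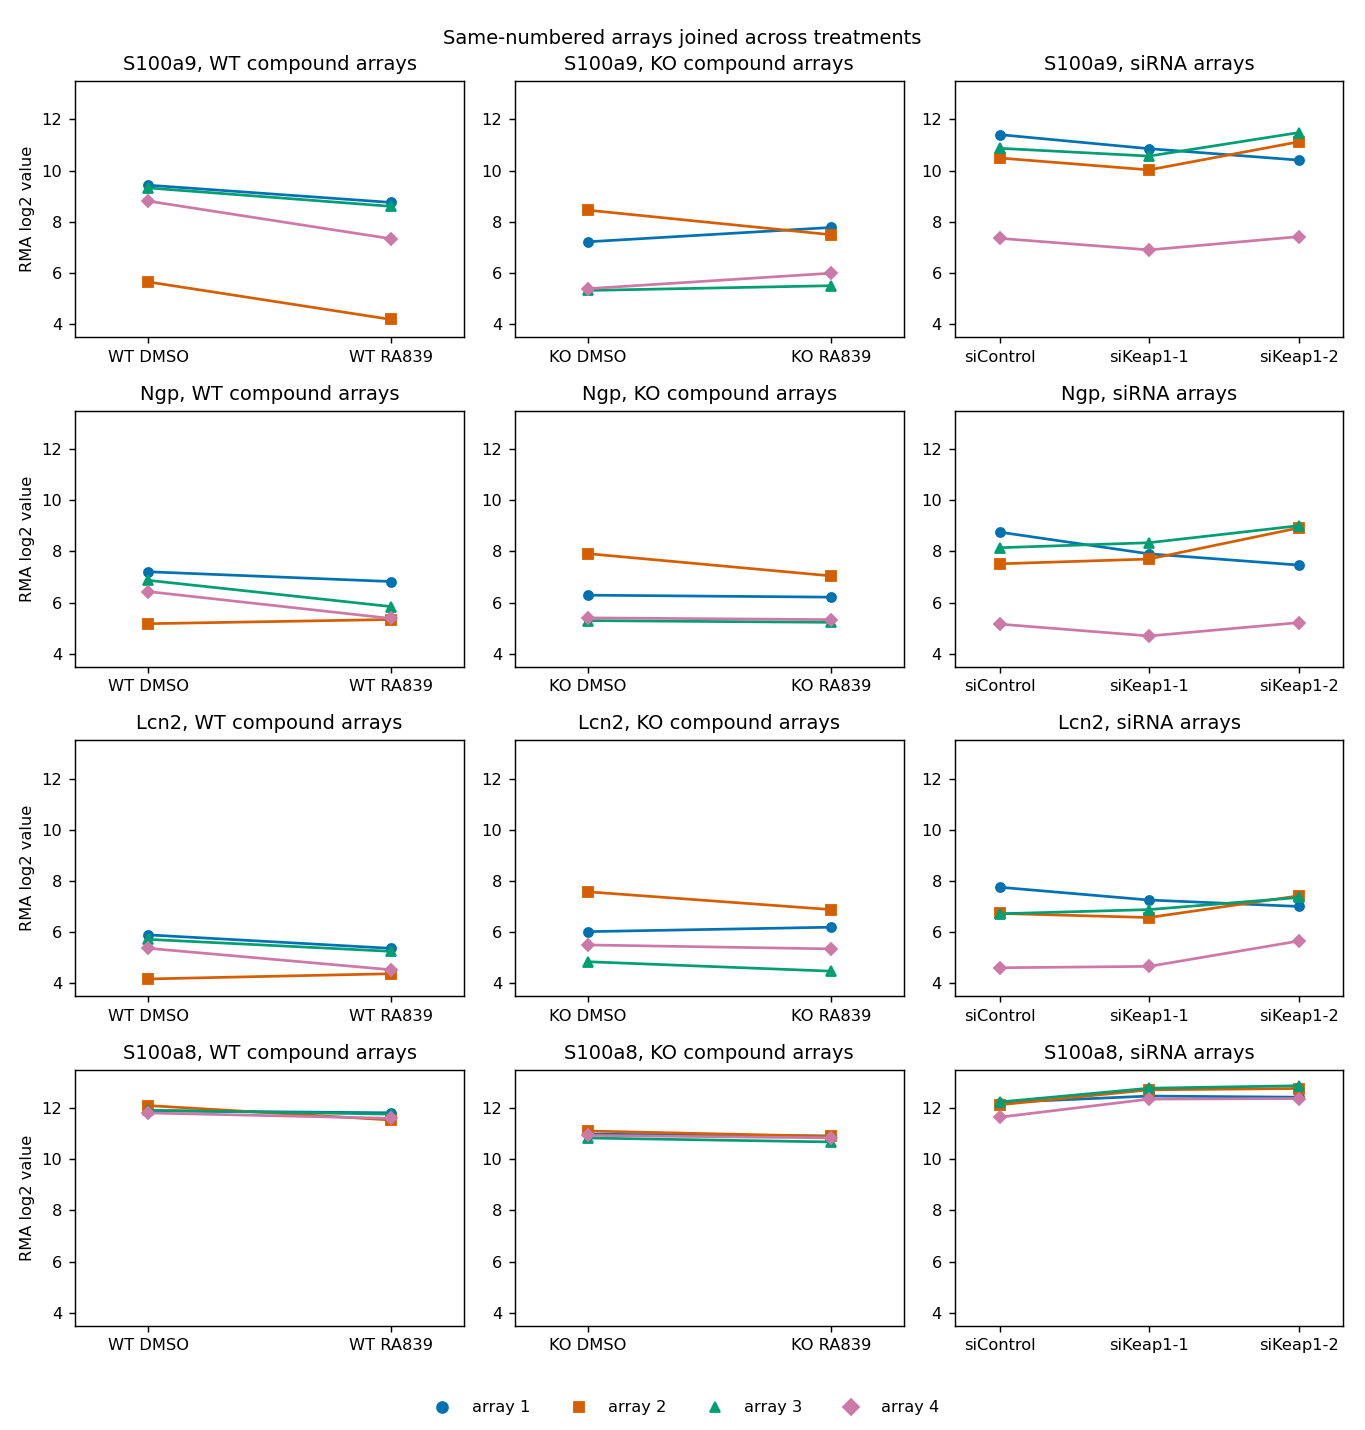
RMA log2 values (vertical axis) of S100a9, Ngp, Lcn2 and S100a8 (rows) in the WT and KO compound arrays and the siRNA arrays (columns), with same-numbered arrays joined across treatments. For S100a9, Ngp and Lcn2 the lines keep wide distances, with WT array 2 and siRNA array 4 low and KO array 2 above KO array 3; for S100a8 the lines lie close together.

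What the replicate numbers share is not stated in the labels, and same-numbered arrays deviated together over all genes inside each genotype and inside the siRNA experiment. Dividing the sum of squares of S100a9 gave replicate number 89.6% and treatment 9.22% in WT, 92.4% and 0.178% in KO, and 94.5% and 2.05% in the siRNA experiment. For Ngp the number took 73.8%, 94.3% and 89.9%, and for Lcn2 78.5%, 95.5% and 86.5%. The medians over all genes were 48.4%, 66.0% and 27.5%, so the siRNA experiment was where these 3 genes departed most from other genes: 99.8%, 99.3% and 98.8% of genes had a smaller share there. S100a8 had a share of 12.4% by number in WT cells, 61.7% in KO cells and 33.9% in the siRNA experiment, and treatment took 56.8%, 32.9% and 58.9%. Camp, an antimicrobial peptide precursor, lay between, at 38.9%, 74.2% and 45.8% by number.

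**Figure D3:**
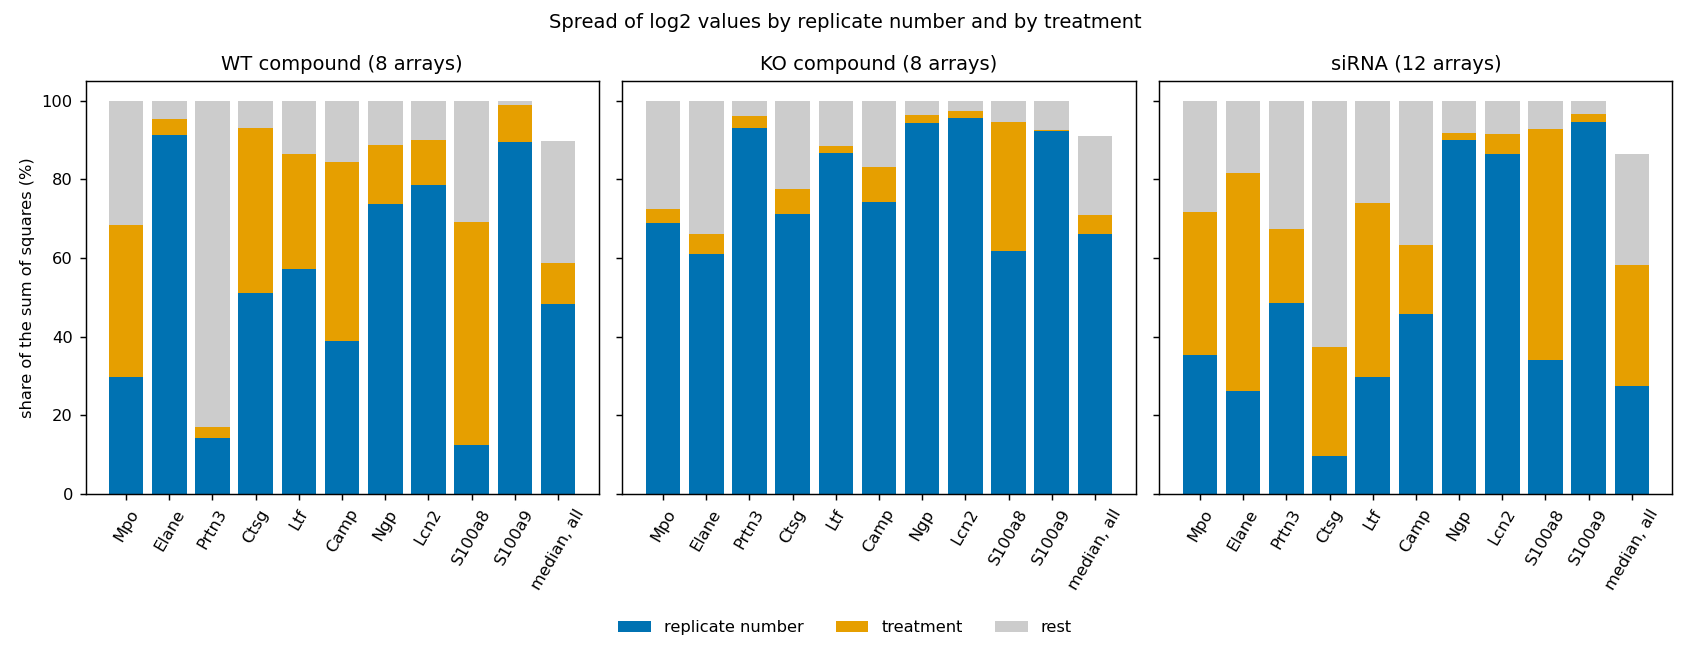
Share of the sum of squares of each gene's log2 values (vertical axis, percent) taken by replicate number, by treatment and by the rest, for the 10 genes and the median of each share over all genes (its parts need not sum to 100), in the WT and KO compound arrays and the siRNA arrays. Replicate number takes 86.5% to 94.5% of Lcn2, Ngp and S100a9 in the siRNA arrays, against a median of 27.5%.

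S100a8 differed from its neighbour and partner S100a9 in the size of its swings. Its 1 probe set carries a shared-transcript suffix (_s_at), which that of S100a9 does not, and no other probe set was there to check it. S100a8 read 11.89, 12.10, 11.92 and 11.81 on arrays 1 to 4 of WT with DMSO. With RA839 it read 11.81, 11.54, 11.76 and 11.60. In KO cells it read 10.98, 11.11, 10.83 and 10.93 with DMSO and 10.91, 10.89, 10.68 and 10.84 with RA839. Every KO value lay below every WT value of that experiment. The lowest array was that of S100a9 in 6 of 7 groups and the highest in 4 of 7; in WT with DMSO, array 2 was the lowest for S100a9 and the highest for S100a8. The siRNA values were 12.22, 12.13, 12.24 and 11.64 with siControl, 12.47, 12.71, 12.78 and 12.35 with siKeap1-1 and 12.43, 12.76, 12.87 and 12.37 with siKeap1-2, so both Keap1 siRNA groups lay above siControl without overlap. Array 4 was the lowest of each siRNA group, as for S100a9, but by less. The pooled SD of S100a8 in the compound experiment was 0.119, smaller than that of most genes: 14.5% of genes had a smaller one.

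RA839 against DMSO in WT cells asked for the compound's effect where Nrf2 is present, and 0 of the 10 granule genes passed. Of all genes, 0.660% passed at a limma adjusted p under 0.05. Groups did not overlap for 0 members, against 5.79% of genes. The values of 9 members were below 0, with a median of −0.38 against −0.01 over all genes, and the smallest adjusted p in limma was 0.34. S100a9 differed by −1.08 ± 1.05 (log2 ± SE, n = 4 per group, limma adjusted p = 0.762), Ngp by −0.57 ± 0.58, Ltf by −0.49 ± 0.25, Ctsg by −0.40 ± 0.15 and S100a8 by −0.25 ± 0.09. The RA839 array was below the DMSO array of its number in 4 of 4 numbers for Mpo, Ctsg, Ltf, Camp, S100a8 and S100a9, and above it in 4 of 4 for Elane; the smallest of these differences were near 0 for Mpo and Elane. With the replicate number as a block the SE of S100a9 shrank to 0.25, with limma adjusted p = 0.0564, and Ctsg had adjusted p = 0.0556, so neither passed. Without WT array 2 with RA839, the array of poor Gapdh ratio, the S100a9 difference was −0.07 ± 0.95 (limma adjusted p = 0.995). Without WT array 2 with DMSO it was −1.97 ± 1.00 (limma adjusted p = 0.508), and without both −0.96 ± 0.80 (limma adjusted p = 0.787).

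RA839 in KO cells gave no call in any gene (0% of genes and 0 of 10 members), while 2.11% of genes and 0 members had groups without overlap. The largest member values there were −0.27 ± 0.58 for Ngp and −0.26 ± 0.57 for Lcn2, and the median was −0.08. The difference between the KO and WT responses also gave 0 of 10, against 0.115% of genes. It was 1.18 ± 1.48 for S100a9 and 0.48 ± 0.22 for Ctsg (both limma adjusted p = 1), and the median of the members was 0.18. At an unadjusted p under 0.05, 2 members and 1891 genes passed in WT, 0 members and 321 genes in KO, and 1 member and 679 genes for the difference of responses.

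In DMSO-treated cells S100a8, Ltf and Ctsg were lower in KO than in WT, and 0 of the 10 genes were higher. The 3 of 10 stand against 25.1% of all genes, and 3 members against 29.5% of genes had groups without overlap. The median over the members was −0.32 against −0.02 over all genes. S100a8 was 1.96-fold lower in KO (−0.97 ± 0.09, limma adjusted p = 3.77e-06). Lactoferrin, the iron-binding protein of specific granules, read 7.39, 7.13, 7.50 and 7.66 in WT and 6.78, 6.69, 5.88 and 6.18 in KO with DMSO. Its groups did not overlap, and Ltf was 2.05-fold lower (−1.03 ± 0.25, limma adjusted p = 0.00752). Ctsg read 3.55, 4.11, 3.99 and 4.35 in WT and 3.07, 3.45, 2.99 and 3.38 in KO, a difference of −0.78 ± 0.15 (limma adjusted p = 0.00187) among dim values.

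The other 7 members did not pass. S100a9 was at −1.71 ± 1.05 (limma adjusted p = 0.256), with KO arrays 1 and 2 inside the range of WT cells and WT array 2 inside that of KO cells. Without WT array 2 with DMSO it was at −2.59 ± 1.00 (limma adjusted p = 0.076). Without both WT arrays numbered 2 it was at −2.59 ± 0.75 (limma adjusted p = 0.0194), the 1 of 35 settings that called it. Lcn2 had the opposite sign, 0.70 ± 0.57, and Ngp was at −0.19 ± 0.58. Camp was at −0.40 ± 0.20 (limma adjusted p = 0.169), and at −0.59 without KO array 2 with DMSO (limma adjusted p = 0.0315). Mpo, Elane and Prtn3 were at 0.04, −0.24 and 0.03. The labels name no culture shared by the genotypes, so genotype and culture cannot be told apart.

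With RA839 in both genotypes, S100a8 was also lower in KO, by −0.85 ± 0.09 (limma adjusted p = 9.07e-06). It was the 1 member called, against 30.4% of genes, and the 1 member without overlap, against 30.9%. Same-numbered DMSO and RA839 arrays deviated together in each genotype, so this comparison is no independent repeat of that with DMSO. The median of the members was −0.26 and that of all genes −0.01. Ltf was at −0.47 ± 0.25 (limma adjusted p = 0.176) and Ctsg at −0.30 ± 0.15 (limma adjusted p = 0.159). Without WT array 2 with RA839, where Ltf read 6.11 and the other 3 arrays of that group 6.98 to 7.42, its difference was −0.74 (limma adjusted p = 0.0159). Lcn2 was at 0.84 ± 0.57 and S100a9 at −0.53 ± 1.05.

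**Figure D4:**
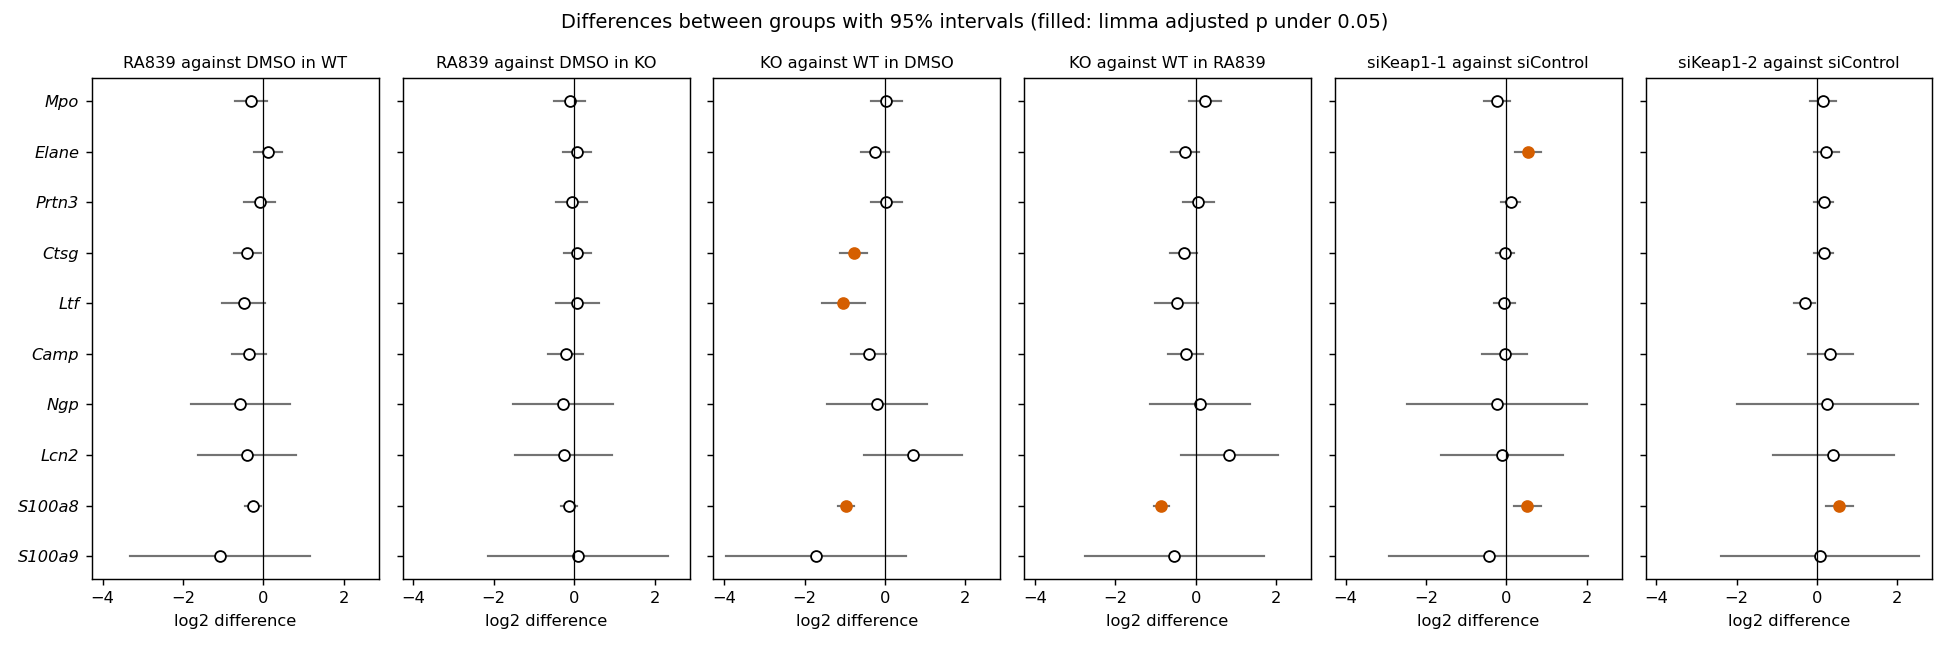
Log2 differences (horizontal axis) of the 10 genes (vertical axis) in 6 comparisons, with 95% intervals from the limma fit as lines; filled points passed an adjusted p under 0.05 over 18193 genes. S100a8 passed in 4 of the 6 comparisons shown with short intervals, and the intervals of S100a9, Ngp and Lcn2 cross 0 in all 6.

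With siKeap1-1 against siControl, S100a8 and Elane were higher, 2 of 10 members against 15.1% of genes; 2 members had groups without overlap, against 20.0% of genes. S100a8 was 1.43-fold higher (0.52 ± 0.16, limma adjusted p = 0.0424). Elane read 3.65, 3.48, 3.62 and 3.58 with siControl and 4.60, 4.18, 3.85 and 3.85 with siKeap1-1, and was higher by 0.53 ± 0.14 (limma adjusted p = 0.0271), at levels near the low end of the scale. The median of the members was −0.04 and that of all genes 0.02. S100a9 was at −0.44 ± 1.13, Ngp at −0.23 ± 1.03, Lcn2 at −0.11 ± 0.69 and Prtn3, the direct neighbour of Elane, at 0.11 ± 0.11.

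siKeap1-2 gave S100a8 alone, 1 of 10 against 11.2% of genes, at 1.47-fold (0.55 ± 0.16, limma adjusted p = 0.0411). S100a8 and Elane, 2 members against 20.6% of genes, had groups without overlap. Elane read 4.01, 3.82, 3.75 and 3.68 there, at 0.23 ± 0.14 (limma adjusted p = 0.371). The values of 9 members were above 0, with a median of 0.20 against 0.03 over all genes. With the replicate number as a block 20.4% of genes passed and 2 members did: S100a8 (limma adjusted p = 0.00188) and Ltf, lower by −0.31 ± 0.09 (limma adjusted p = 0.0488, and 0.117 without the block). Between the siRNAs 0 of 10 members passed, against 7.45% of genes, and 0 members against 13.2% of genes had groups without overlap. At an unadjusted p under 0.05 there were 2 members and 3616 genes, and the members' median was −0.28.

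These siRNA calls sat close to the threshold without the block, and leaving out single arrays ended them while the differences kept their sign. Over all 27 settings the S100a8 difference was 0.38 to 0.61 with siKeap1-1 and 0.41 to 0.67 with siKeap1-2, and the Elane difference with siKeap1-1 was 0.37 to 0.64. With the replicate number as a block, the siKeap1-1 calls had limma adjusted p = 0.00205 for S100a8 and 0.00828 for Elane. For S100a8 with siKeap1-1 the limma adjusted p was 0.05004, 0.0743 and 0.101 without siControl array 1, 2 or 4. It was 0.0594, 0.104 and 0.109 without siKeap1-1 array 1, 2 or 3, and 0.0527 without siKeap1-2 array 2, which belongs to the same fit. For S100a8 with siKeap1-2 it was 0.0736, 0.0502 and 0.0975 without siControl array 2, 3 or 4, 0.0506 and 0.0535 without siKeap1-1 array 1 or 2, and 0.114 and 0.115 without siKeap1-2 array 2 or 3. For Elane with siKeap1-1 it was 0.0756, 0.0548 and 0.0583 without siControl array 2, 3 or 4 and 0.0658 without siKeap1-1 array 2. Without siControl array 4, the array lowest in S100a8, the S100a8 differences were 0.38 and 0.41. In 4 of 4 numbers S100a8 was higher with siKeap1-1 than with siControl, by 0.25 to 0.71, and likewise with siKeap1-2, by 0.21 to 0.73.

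Mpo, Prtn3 and Camp passed in no comparison of the main fits, and group values of Ltf and S100a8 are given beside theirs. Mpo lay at 3.87 to 4.80 on the compound arrays and 3.68 to 4.60 on the siRNA arrays. Prtn3 lay at 3.79 to 4.56 and 4.73 to 5.26. Group means of Camp, with n = 4 and SD, were 5.71 ± 0.27 in WT with DMSO, 5.35 ± 0.18 in WT with RA839, and 5.31 ± 0.44 and 5.10 ± 0.32 in KO with DMSO or RA839. Neighbours in this order differed by less than their SDs, except the first 2. In the siRNA experiment Camp was at 6.09 ± 0.46, 6.05 ± 0.34 and 6.41 ± 0.43 with siControl, siKeap1-1 and siKeap1-2. Ltf was at 7.69 ± 0.07, 7.64 ± 0.17 and 7.38 ± 0.25 there. Ordered by mean, S100a8 went from WT with DMSO (11.93 ± 0.12) through WT with RA839 (11.68 ± 0.13) and KO with DMSO (10.96 ± 0.11) to KO with RA839 (10.83 ± 0.11), the step between genotypes being the widest.

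Other genes of neutrophils and their precursors were read from a list of 28, of which 21 were measured. In KO against WT with DMSO 2 were higher and 4 lower, with a median of −0.16; the 6 of 21 stand against 25.1% of all genes. Orm1, an acute-phase protein also stored in granules, was at −2.09 ± 0.22 (limma adjusted p = 9.02e-06), Serpinb1a, an inhibitor of neutrophil serine proteases, at −1.89 ± 0.32 and Stfa3, a stefin, at 1.41 ± 0.47. With RA839 in both genotypes the counts were 2 and 4 again (30.4% of all genes), with siKeap1-1 4 higher and 3 lower (15.1%) and with siKeap1-2 2 and 2 (11.2%). With siKeap1-1 against siKeap1-2 they were 1 and 0 (7.45%), and with RA839 in WT or KO 0 and 0 (0.660% and 0%). The list's summed linear level ran from 46278 to 51188 in WT and from 41649 to 50216 in KO with DMSO, with overlap, and from 36401 to 48465 in WT and 42561 to 49011 in KO with RA839. In the siRNA groups it ran from 61139 to 62621 with siControl, 57223 to 60359 with siKeap1-1 and 57184 to 59947 with siKeap1-2. A linear sum follows its brightest genes, here Anxa1 (14.25 to 14.83 over all arrays), Mmp8, Slpi (11.76 to 13.13) and Cybb (11.50 to 13.32). The dim precursor markers add little to it, so it is no measure of granulocyte content. Of the early precursor markers, Ms4a3 was at 4.72 to 5.75, Fcnb at 4.59 to 5.72, and of the later ones Cd177 at 3.41 to 4.94, Olfm4 at 2.68 to 3.40 and the receptor Cxcr2 at 2.71 to 4.41 over all 28 arrays. Other genes of the list were brighter, so these dim ones do not stand for it. Mmp8, the neutrophil collagenase, read 12.04 to 13.67, Mmp9 8.32 to 11.82 and Wfdc21 7.56 to 10.86. Mcemp1 read 7.68 to 10.25 and Ltb4r1 7.71 to 9.41, while Stfa2l1 read 3.48 to 6.68. The receptor Csf3r read 6.41 to 8.54.

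A further list of 10 genes was named for neutrophil surface receptors, without a check that each gene encodes one. Of its 7 measured genes, 0 were higher and 3 lower in KO with DMSO, against 25.1% of all genes in either direction. Ceacam10 differed by −3.78 ± 0.54, Ceacam1 by −0.78 ± 0.17 and Clec4d by −0.67 ± 0.07. Clec4d was bright in these cultures, at 13.66 to 14.80 over all arrays. In both Keap1 siRNA groups Ceacam10 was higher, by 1.38 ± 0.19 and 1.37 ± 0.19 (limma adjusted p = 0.000381 and 0.000546). It was the 1 gene of this list higher in each, and Fpr2 was lower with siKeap1-2 (15.1% and 11.2% of all genes passed). Fpr2, a formyl peptide receptor singled out after its values were seen, had its lowest array in common with S100a9 in 7 of 7 groups. Its KO values were 10.36, 11.53, 7.99 and 9.12 with DMSO and 10.53, 11.53, 7.68 and 8.71 with RA839. Mcemp1 and Stfa3 shared the low array in 6 of 7 groups, and no other gene of the neutrophil list or this list did so in more than 5.

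Of 9 measured transcription factors of granulopoiesis, 2 were higher and 1 lower in KO with DMSO, against 25.1% of all genes. Gfi1, a repressor needed for neutrophil differentiation, was at −1.15 ± 0.19 (limma adjusted p = 0.000475). Its values were dim, at 4.36 to 5.02 in WT and 3.28 to 3.60 in KO with DMSO. Runx1 was at 0.56 ± 0.10 and Irf8, which favours the monocyte lineage, at 0.35 ± 0.08. With siKeap1-1 and siKeap1-2 the count was 0 higher and 1 lower in each, against 15.1% and 11.2%.

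Macrophage markers were read beside the members. In KO against WT with DMSO, 3 of 17 measured (18 listed) were higher and 2 lower, against 25.1% of all genes and with a median of −0.06, with Fcgr1 at 1.98 ± 0.40, Cd14 at 1.83 ± 0.14 and C1qc at 1.15 ± 0.38; with siKeap1-1 0 were higher and 7 lower (15.1% of all genes), and with siKeap1-2 0 and 8 (11.2%). Their summed linear level ran from 125780 to 141357 in WT and from 129619 to 155637 in KO with DMSO, and from 153720 to 166684 with siControl, 136604 to 146149 with siKeap1-1 and 133767 to 142381 with siKeap1-2. Replicate number took a median of 61.9%, 96.8% and 29.6% of the macrophage markers' sum of squares in WT, KO and the siRNA experiment, and 63.5%, 93.7% and 24.8% for the other neutrophil genes. In KO cells 7 proliferation genes reached 98.5%. The part that cell composition, culture and RNA quality have in the members' values was not tested.

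The genes outside the family that lay nearest to a member over the 16 compound arrays were found by the root mean square difference after centring each gene on its mean. For S100a8 they were Itgam (0.14), the integrin subunit of CD11b, 2310047D07Rik (0.15) and Wdr95 (0.15). Itgam read 10.25, 10.64, 10.30 and 10.36 in WT and 9.41, 9.34, 9.11 and 9.52 in KO with DMSO. For Ltf they were Aldh1l1 (0.19), Stac2 (0.21) and Fads3 (0.21), for Lcn2 Pde4b (0.41), Sema6d (0.41) and Tmem273 (0.44), and for Ngp Cd163 (0.51), Bcl3 (0.52) and Ccnb2 (0.52). Within the family, Lcn2 was nearer to Ngp (0.48) than these. For S100a9 they were Rpl39l (0.85), Kcnj10 (1.03) and Fabp3 (1.05). Over the 12 siRNA arrays S100a9 was nearest to Ngp (0.31), and outside the family to C2 (0.45). Camp was nearest to Tbc1d2b (0.18), Calhm2 (0.18) and St3gal3 (0.18), and Ctsg to Olfr16 (0.15), Gabrr1 (0.15) and Smoc2 (0.18), which is a likeness among dim values. These points share their arrays, and a wider range gives a larger difference, so the figures are not comparable between members.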

How the data were processed

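RNA was measured on 28 one-colour Affymetrix mouse arrays. In the deposited table each probe set has 1 log2 value on every array, which the authors made with RMA per the submitters' processing notes. The RMA version and a genome build are not given in the sources used. RMA compresses differences among dim probe sets, so low values can understate a change, and the number of arrays limits the precision. Of 45101 probe sets, 932 named several genes and were not used. Each of 18193 genes took its single-gene probe set of highest mean. Each experiment was fitted apart with limma 3.58.1 in R 4.3.3 (lmFit, 1 coefficient per group, eBayes); a gene passed where its two-sided p, after Benjamini-Hochberg adjustment across all genes, was under 0.05.

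All members are named in each comparison. Of the other neutrophil, receptor, transcription factor and macrophage lists, up to 3 genes of largest change past the threshold in KO against WT with DMSO are named. For each member with a range of at least 1 over the compound arrays the 3 nearest genes are named. Other genes of the lists are named outside these rules, for their level or their lowest array. The members and lists were chosen with earlier results of these data known. Lists of 8 further cell types (monocytes, progenitors, eosinophils, basophils and mast cells, erythroid, B, T and NK, dendritic and stromal cells), of proliferation and of inflammation were counted alike. In KO against WT with DMSO the higher and lower counts were 0 and 0 of 5 monocyte, 2 and 0 of 9 progenitor, 2 and 1 of 5 eosinophil, 0 and 0 of 9 basophil and mast cell, 1 and 1 of 8 erythroid, 0 and 0 of 7 B cell, 0 and 1 of 7 T and NK cell, 1 and 0 of 7 dendritic, 0 and 3 of 7 stromal, 0 and 0 of 7 proliferation and 2 and 0 of 14 inflammatory genes.

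Replicate numbers come from the labels. Same-numbered arrays correlated in their deviations across genes by 0.27 to 0.46 in WT, 0.66 to 0.70 in KO and 0.12 to 0.66 in the siRNA experiment, so a replicate block was run as an alternative there. Between genotypes the correlations were −0.29 to −0.01, and the numbers pair nothing. Arrays of 18193 genes were simulated with independent normal noise, with 50 genes changed at each fold size of 1.5, 2, 3 and 4. For KO against WT in DMSO, 46% of genes changed 1.5-fold passed, and 82% of those changed 2-fold. For siKeap1-1 these shares were 82% and 96%. Unchanged genes that passed numbered 12 and 16. A far larger share of genes passed in the data (25.1% and 15.1%) than was changed in the simulation. The Benjamini-Hochberg cut-off depends on that share, so the simulated shares do not give the sensitivity of these comparisons. The shares are averages over genes. They do not describe S100a9, Ngp and Lcn2, whose pooled SDs were 0.91 to 1.83, against medians of 0.188 and 0.136. Whether the shares hold where same-numbered arrays deviate together was not tested.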

Additional observations from a re-analysis of the deposited data

Results flagged for a closer look

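In WT cells with DMSO, array 2 stood apart from the other 3 arrays for 2 of the 10 genes. S100a9 read 5.65 there and 8.81 on the next lowest array, a gap of 0.836 of the group's range. Camp read 5.31 there and 5.78 on the next lowest, a gap of 0.842 of the range. Both gaps are above the 95% critical value of Dixon's test for 4 samples. Of 70 sets of a gene and a group, 2 were, and chance alone gives about 1 in 20.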

How the results depend on the processing

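Over the alternatives, 2506 of 2545 member values stayed on their side of the threshold, 32 lost a call, 7 gained one and 0 turned sign while called. S100a8, Ltf and Ctsg in KO against WT with DMSO were called in 35 of 35 settings that held each, and S100a8 with RA839 in 35 of 35. Counts of called members moved as follows. Brighter genes only gave 1 in KO against WT with DMSO, where it holds 1 member, and 1 with siKeap1-1, where it holds 2. Without probe sets of shared-transcript suffix, which drops S100a8 and Lcn2, the counts were 0 for KO against WT with RA839, 1 for siKeap1-1 and 0 for siKeap1-2. Array weights gave 2 for KO against WT with RA839, adding Ltf. A fit of only the groups compared, or a limit of 0.01, gave 0 for either siRNA. The replicate block gave 2 for siKeap1-2 and changed no other call. Leaving out arrays, singly or (chosen after seeing the data) by number, gave 3 to 4 for KO against WT with DMSO (adding Camp or S100a9), 1 to 2 for KO against WT with RA839, 0 to 2 for siKeap1-1 and 0 to 1 for siKeap1-2. For the difference of responses, a fit of only the groups compared is the same fit and was not repeated. Dim values limit what the azurophil genes can show.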
